A study of Mus musculus with 6 samples.

Results

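The 10 genes described here encode receptors and adhesion proteins of endothelial cells, the cells that line blood vessels: Flt1, Kdr, Tek, Tie1, Eng, Cdh5, Esam, Pecam1, Emcn and Madcam1. They were chosen by symbol, and each was measured by 1 probe set annotated to that symbol alone, so the members make up 10 of the 22180 genes represented on the arrays. Expression was measured in spleens with 1 Affymetrix array per sample, 3 from DX2 mice and 3 from control mice. The DX2 mice had the genotype CAG-rtTA; TRE DX2/+, in which the doxycycline-dependent activator rtTA, driven by the broadly active CAG promoter, induces a transgene for AIMP2-DX2. DX2 is a splice form, lacking an exon, of AIMP2, a protein that holds together a complex of several tRNA synthetases. The control mice were littermates that carried the TRE DX2 transgene without rtTA. All mice were fed pellets with doxycycline at 6.25 mg/kg, starting when they were 8 weeks old, and were sampled when 1 year old, and the labels name the samples of a group biological replicates.

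Because rtTA was present in the DX2 mice only, effects of rtTA and of DX2 cannot be told apart. The probe set covering Aimp2 is annotated to Eif2ak1 as well and read 6.23, 6.50 and 6.51 in DX2 spleens 1, 2 and 3, against 6.11, 6.34 and 6.03 in the control spleens (log2), so it gave no clean check of the labels. By Xist and the Y-linked transcripts, all 3 DX2 spleens and control 3 were male, and control 1 and control 2 were female. The median over all genes was between 5.42 and 5.46 on each array. All values below are log2 expression values unless a fold is named, and differences are DX2 minus control.

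Endothelial cells sense vascular growth signals through receptor tyrosine kinases and hold the vessel wall together through junctional proteins. The receptors for vascular endothelial growth factors (VEGF) drive vessel growth and permeability, the TIE receptors for angiopoietins keep vessels stable, and cadherin and immunoglobulin-family proteins join neighbouring cells. In the spleen, blood passes from central arterioles through the marginal sinus and the open cords of the red pulp into venous sinuses, each lined by its own kind of endothelium. Several of these proteins are also found outside endothelium: Pecam1 on leukocytes and platelets, Esam on platelets, Esam, Tek and Emcn on blood stem cells, Flt1 on monocytes, and Eng on macrophages and early erythroid cells.

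Of the 10 genes, 8 had a higher mean in DX2 spleens and 2, Pecam1 and Madcam1, a lower one, with differences from -0.39 (Pecam1) to 0.73 (Eng). The median difference was 0.40 over the 10 genes and 0.0085 over all genes, of which 51.6% were higher in DX2. Without DX2 3 the median over the 10 genes was 0.24. None of the 10 reached an adjusted p under 0.05 in limma (Benjamini-Hochberg over 22180 genes), a threshold met by 0.316% of all genes. The adjusted p of the members ran between 0.210 (Eng) and 0.789 (Tek). At an unadjusted p under 0.05 the members included 3 that were higher, Eng, Esam and Cdh5, and 0 that were lower, against 8.13% of all genes higher and 7.82% lower. That count of members was 7 higher and 1 lower without DX2 2, 2 higher without control 3, 1 higher without any other single spleen, and 0 with a sex term. Over all genes, an unadjusted p under 0.05 in either direction was met by 3538 genes with all spleens (limma). That number was 4047 without DX2 2, 2631 without control 3, 2529 to 3494 without any other single spleen, and 1963 with a sex term. All 3 DX2 values lay above all 3 control values for Eng, Esam and Flt1, an arrangement seen for 10.7% of all genes, and no member had the opposite arrangement, seen for 11.2%.

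**Figure D1:**
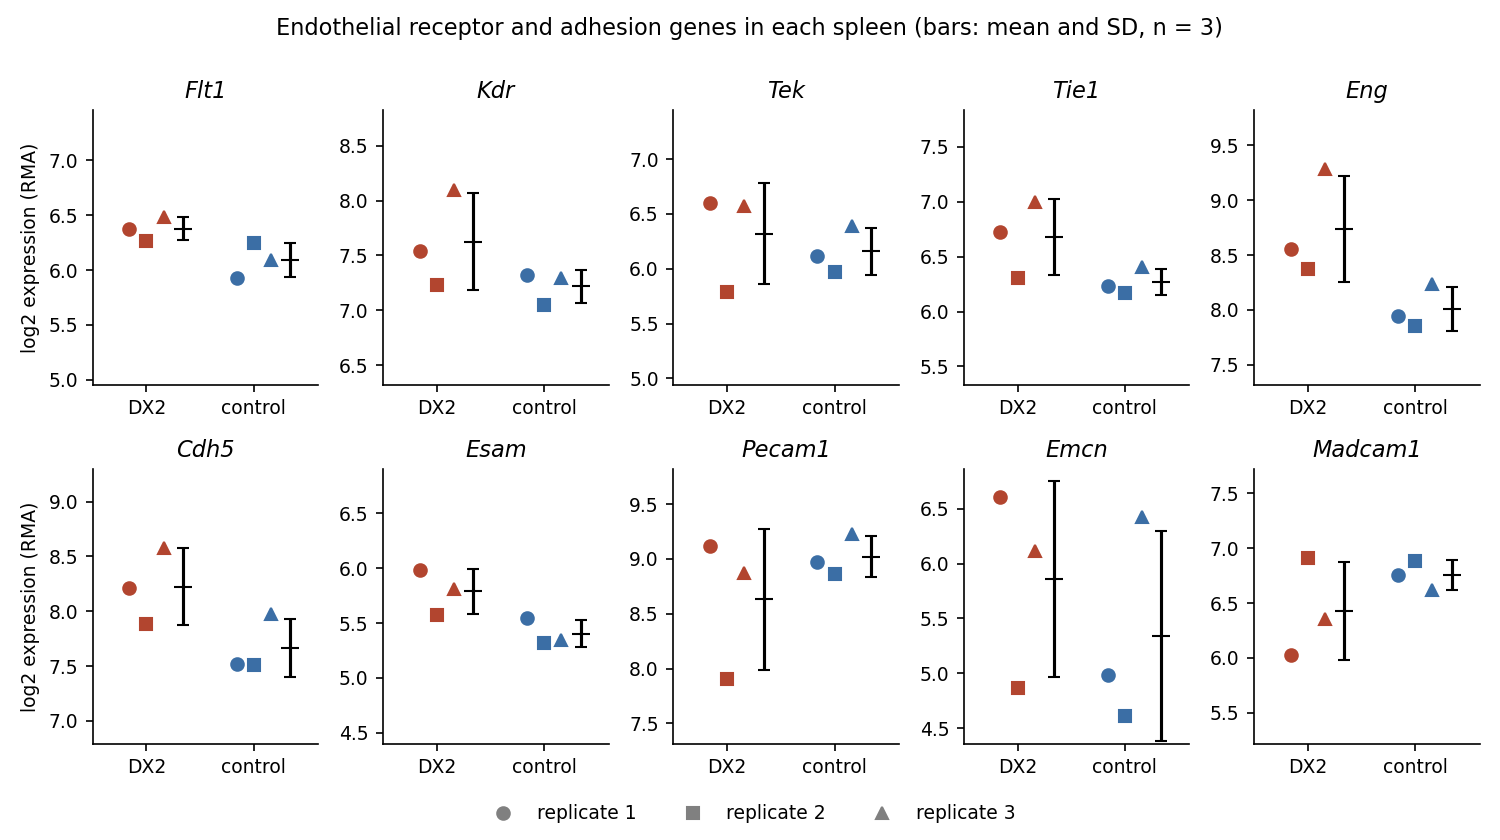
Log2 expression of the 10 genes in each spleen, with DX2 at the left and control at the right of each panel. Points are single spleens with the replicate number as the symbol, black bars are the mean and SD (n = 3), and every panel spans the same height. For Eng, Esam and Flt1 the groups do not overlap, and in Pecam1, Tek and Emcn the square of DX2 2 lies well below DX2 1 and DX2 3.

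Promoter sequence is shown for 3 members, Eng and Tie1 with higher means in DX2 spleens and Madcam1 with a lower one. The stretches are the 250 bases before the annotated transcription start in RefSeq (GRCm38.p6). The promoter set used here held 7 of the 10 members (Eng, Emcn, Tek, Tie1, Kdr, Flt1 and Madcam1) and had no entry for Pecam1, Cdh5 and Esam. Capitals mark GGAA on either strand (GGAA or TTCC as printed), the core bound by ETS-family factors, a family known for regulating endothelial genes. They are given 5′ to 3′ on the strand of the gene, at chr2:32646345-32646594 (Eng, plus strand), chr4:118489850-118490099 (Tie1, minus strand) and chr10:79664309-79664558 (Madcam1, plus strand).
Eng: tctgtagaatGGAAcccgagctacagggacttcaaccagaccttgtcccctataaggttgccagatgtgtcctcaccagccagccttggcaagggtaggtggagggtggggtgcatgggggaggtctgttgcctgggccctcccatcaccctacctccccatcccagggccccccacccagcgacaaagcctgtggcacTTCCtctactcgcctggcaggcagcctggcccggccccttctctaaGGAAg
Tie1: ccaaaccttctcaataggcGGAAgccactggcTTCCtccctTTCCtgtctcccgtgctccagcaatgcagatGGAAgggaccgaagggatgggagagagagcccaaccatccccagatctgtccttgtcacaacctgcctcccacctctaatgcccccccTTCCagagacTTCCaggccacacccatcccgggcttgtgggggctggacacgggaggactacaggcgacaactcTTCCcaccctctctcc
Madcam1: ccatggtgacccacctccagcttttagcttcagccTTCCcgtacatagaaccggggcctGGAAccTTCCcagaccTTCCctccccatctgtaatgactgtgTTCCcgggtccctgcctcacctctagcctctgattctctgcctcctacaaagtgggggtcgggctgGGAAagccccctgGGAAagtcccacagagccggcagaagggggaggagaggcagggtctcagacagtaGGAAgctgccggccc
GGAA occurred at 3 places in the Eng window, 7 in that of Tie1 and 8 in that of Madcam1. At least 1 such match was present in 93.4% of 32851 promoter windows of this length, and the median was 3 per window. At least as many matches as in Tie1 were found in 3.82% of windows, at least as many as in Madcam1 in 1.45% and at least as many as in Eng in 54.7%. Kdr, Flt1 and Emcn had 4 each, a number reached by 33.4% of windows, and Tek had 2, reached by 76.8%. The longer form AGGAAG, which contains GGAA, was found on either strand in 5 of the 7 windows and in 29.5% of all, while AGATAA, the kind of site that Gata factors bind, was found in 0 of the 7 and in 9.99% of all. These are matches of letters, and binding was not measured.

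Among the VEGF receptors, Flt1 and Kdr both had higher means in DX2 spleens. Flt1, which binds VEGF tightly and signals weakly, stood at 6.38, 6.27 and 6.48 in DX2 spleens 1, 2 and 3, against 5.93, 6.24 and 6.09 in control spleens 1, 2 and 3. The groups did not overlap, but DX2 2 and control 2 were only a small step apart. The difference was 0.29 (SE 0.12, 95% interval -0.00099 to 0.57), which is 1.22-fold, at adjusted p = 0.315 (limma). Kdr, the main signalling receptor for VEGF, read 7.54, 7.23 and 8.10 in the DX2 spleens, against 7.32, 7.05 and 7.29 in the control spleens. DX2 3 was clearly the highest of the 6 spleens, and DX2 2 lay among the control values. Its difference was 0.40 (SE 0.22, 95% interval -0.10 to 0.91) at adjusted p = 0.420, and 0.17 without DX2 3.

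In both TIE receptors DX2 2 was the lowest DX2 spleen. Tie1, a receptor that modulates Tek and has no well-established ligand of its own, read 6.72, 6.31 and 7.00 in DX2 spleens, against 6.23, 6.17 and 6.40 in control spleens. DX2 1 and DX2 3 were above every control spleen, and DX2 2 was below control 3. The difference of 0.41 (SE 0.18, 95% interval -0.014 to 0.83) had an adjusted p of 0.330, and it was 0.25 without DX2 3. Tek, the angiopoietin receptor also called Tie2, read 6.60, 5.79 and 6.58 in DX2 spleens and 6.12, 5.97 and 6.39 in control spleens. DX2 2 held the lowest of the 6 Tek values and the other DX2 spleens the highest, so the groups overlapped fully. The Tek difference was 0.16 (SE 0.24, 95% interval -0.39 to 0.71, adjusted p = 0.789). It was 0.43 without DX2 2, 0.021 without DX2 1 and 0.035 without DX2 3, and among the male spleens it had the opposite sign (-0.068).

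Eng had the largest difference of the 10 genes. It encodes endoglin, a coreceptor for bone morphogenetic proteins and transforming growth factor beta on endothelium. Eng stood at 8.56, 8.37 and 9.29 in DX2 spleens 1, 2 and 3, against 7.94, 7.85 and 8.24 in control spleens 1, 2 and 3. Every DX2 value exceeded every control value, with DX2 3 far above the rest and DX2 2 close to control 3. The DX2 mean was 8.74 ± 0.48 and the control mean 8.01 ± 0.20 (SD, n = 3 each), a 1.66-fold difference on the unlogged scale. On the log2 scale the difference was 0.73 (SE 0.24, 95% interval 0.17 to 1.29) at adjusted p = 0.210 (limma). It was 0.45 without DX2 3 and 0.50 among the male spleens.

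The junction genes Cdh5 and Esam had higher means in DX2 spleens and Pecam1 a lower one. Cdh5, the cadherin of endothelial adherens junctions, read 8.22, 7.88 and 8.58 in DX2 spleens, against 7.52, 7.51 and 7.97 in control spleens. The overlap was limited to DX2 2, which was below control 3. Cdh5 differed by 0.56 (SE 0.21, 95% interval 0.074 to 1.04), 1.47-fold, at adjusted p = 0.250, and by 0.25 among the male spleens, where control 3 is the only control. Esam, an immunoglobulin-family protein of endothelial tight junctions, read 5.98, 5.57 and 5.82 in DX2 spleens and 5.55, 5.32 and 5.34 in control spleens. The groups touched without overlapping, between DX2 2 and control 1. The Esam difference was 0.39 (SE 0.14, 95% interval 0.064 to 0.71) at adjusted p = 0.237. It was 0.45 among the male spleens and 0.29 without DX2 1, its smallest value over 17 alternatives to the fit.

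Pecam1, the CD31 protein of endothelial cell borders, read 9.12, 7.91 and 8.87 in DX2 spleens, against 8.98, 8.86 and 9.23 in control spleens. DX2 2 was the outlying value, well below the next spleen, and DX2 1 and DX2 3 were within the control range. The DX2 mean was 8.63 ± 0.64 and the control mean 9.02 ± 0.19 (SD, n = 3 each), a difference of -0.39 (SE 0.30, 95% interval -1.08 to 0.30, adjusted p = 0.578). Without DX2 2 it was -0.027, and without DX2 1 it was -0.63. Pecam1 and Cdh5 ranked the spleens differently: DX2 3 held the highest Cdh5 value, while control 3 held the highest Pecam1 value.

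The mucin-like genes Emcn and Madcam1 had the patterns least like the other members. Emcn, a sialomucin of capillary, venous and sinusoidal endothelium, read 6.60, 4.86 and 6.11 in DX2 spleens, against 4.98, 4.61 and 6.43 in control spleens. The values formed a high set (DX2 1, DX2 3 and control 3) and a low set (DX2 2, control 1 and control 2) that cut across the groups. With a range of 1.99 over the 6 spleens Emcn had the widest spread of the 10 genes, and its difference of 0.52 (SE 0.56, 95% interval -0.79 to 1.83) had an adjusted p of 0.707. With 1 array left out it was between 0.15 (without DX2 1) and 1.06 (without control 3). Both female spleens were in the low set, and among the male spleens the difference was -0.57. Whether sex contributed to the Emcn values was not tested beyond the fits with sex.

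Madcam1 is the addressin that lymphocytes bind through the integrin of the chains Itga4 and Itgb7, and in the spleen it marks cells lining the marginal sinus. It read 6.03, 6.91 and 6.35 in DX2 spleens, against 6.76, 6.89 and 6.62 in control spleens. DX2 1 and DX2 3 were below all control spleens, and DX2 2 was the highest of the 6. That order is the reverse of most members, for which DX2 2 was the lowest DX2 spleen. The Madcam1 difference was -0.32 (SE 0.22, 95% interval -0.83 to 0.18) at adjusted p = 0.522. It was -0.12 without DX2 1 and -0.56 without DX2 2, the second at an unadjusted p of 0.00735 and an adjusted p of 0.104 (limma).

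**Figure D2:**
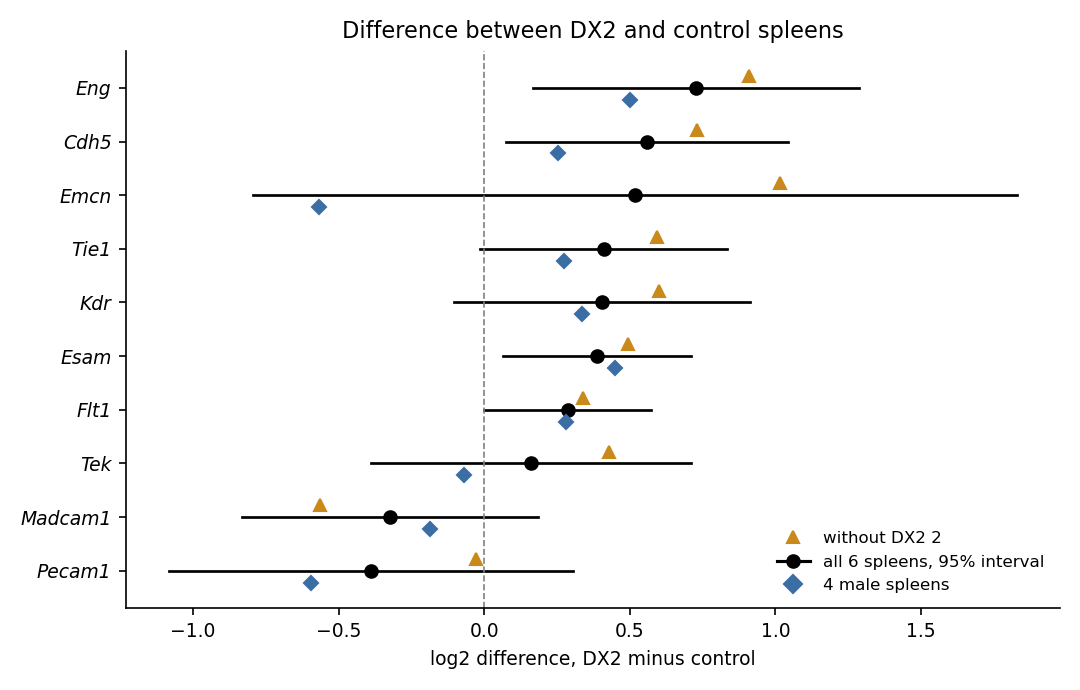
Log2 differences (DX2 minus control) of the 10 genes, ordered by size. Black points and lines are the estimates and 95% intervals from limma over all 6 spleens, orange triangles the estimate without DX2 2 and blue diamonds that among the 4 male spleens; leaving out DX2 2 moves Pecam1 to -0.027 and Tek to 0.43, and Emcn is at -0.57 in the male spleens.

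For most members the DX2 spleens differed among themselves more than the control spleens did. The SD was larger in DX2 than in control for 8 of the 10 members, all but Flt1 and Emcn, and for 58.6% of all genes. With each gene centred on its own mean, 9 of the 10 members were above their mean in DX2 1 and likewise 9 in DX2 3, whereas DX2 2 had 2 (Flt1 and Madcam1). Among control spleens it was 2 in control 1, 3 in control 2 and 5 in control 3. DX2 3 held the highest value for 5 members and DX2 1 for 3, and control 2 held the lowest for 6. Averaged over the members, the centred value was 0.25, -0.22 and 0.39 in DX2 spleens 1, 2 and 3, against -0.20, -0.28 and 0.070 in control spleens 1, 2 and 3, so DX2 2 was closer to control 1 and control 2 than to the other DX2 spleens.

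Of the members, Tie1 and Tek followed this mean profile most closely, at mean absolute distances of 0.068 and 0.095 over the 6 arrays, and Emcn (0.55), Madcam1 (0.49) and Pecam1 (0.35) least. Among 15350 other named genes with a comparable range, the 5 nearest to the profile were Slc7a1, Errfi1, Plekhg1, Jmy and Proser3, at distances of 0.037 to 0.049. The cationic amino acid transporter gene Slc7a1, the nearest, read 7.18, 6.67 and 7.40 in DX2 spleens and 6.80, 6.66 and 6.98 in control spleens. Its difference was 0.27 (SE 0.20).

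The ligands of these receptors had a median difference close to that of all genes. Of 12 measured ligand genes 7 were higher in DX2 and 5 lower, the median was 0.0064, and 0 passed, with 1 higher and 0 lower at an unadjusted p under 0.05 (limma). With 1 array left out the median was between -0.023 and 0.13. The genes of smallest p were Vegfb, Tgfb1, Vegfc and Pgf. Vegfb, a ligand of Flt1, read 7.68, 7.64 and 7.89 in DX2 spleens, against 7.36, 7.42 and 7.38 in control spleens. The groups were well separated for Vegfb, with a difference of 0.35 (SE 0.11) at adjusted p = 0.196. Vegfc, a ligand of Flt4 and Kdr, differed by 0.21 and Tgfb1, the transforming growth factor ligand, by 0.27, while Pgf, another ligand of Flt1, differed by -0.20. Vegfc was at 0.094 without DX2 3, and Pgf at -0.11 without DX2 1 and -0.31 without DX2 3. Among the male spleens Tgfb1 was at 0.14.

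Most coreceptors and signalling partners also had higher means in DX2 spleens, with a different order among those spleens. Their list mean was 7.05, 7.18 and 7.22 in DX2 spleens 1, 2 and 3, so DX2 2 was not the lowest, as it was for most members. Of 17 measured, 13 were higher and 4 lower, with a median of 0.27, none past the threshold, and 4 higher and 0 lower at an unadjusted p under 0.05 (limma). Bmpr2, the type II receptor for bone morphogenetic proteins, read 9.08, 8.90 and 9.20 in DX2 spleens, against 8.61, 8.31 and 8.63 in control spleens, and differed by 0.55 (SE 0.14, adjusted p = 0.127). Flt4, the VEGF receptor of lymphatic and sinusoidal endothelium, read 6.93, 6.81 and 7.18 in DX2 spleens, against 6.36, 6.58 and 6.44 in control spleens, and differed by 0.52 (SE 0.13, adjusted p = 0.132). In both genes DX2 2 stood above every control spleen. Plxnd1, a semaphorin receptor, differed by 0.40 and Smad1, a transducer of bone morphogenetic protein signals, by 0.32, also without overlap between the groups. Without DX2 2 the list's median was 0.17.

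Genes of cell junctions other than the members, not all of them binding partners of Cdh5 or Esam, had a median of 0.27. Of 16 measured 13 were higher and 3 lower, 0 passed, and 6 were higher and 0 lower at an unadjusted p under 0.05 (limma). Tjp1, the tight junction scaffold, read 7.31, 6.89 and 7.32 in DX2 spleens, against 6.14, 5.98 and 6.66 in control spleens. All DX2 values were above the control values, and the difference of 0.91 (SE 0.20) was the largest of this list, at adjusted p = 0.107. Cldn5, the claudin of endothelial tight junctions, differed by 0.74 (SE 0.19, adjusted p = 0.129), Ctnna1, the alpha-catenin that links cadherins to actin, by 0.48 and Nectin2 by 0.42. Leaving out DX2 3 brought the list median to 0.16, and among the male spleens Tjp1 was at 0.51 and Ctnna1 at 0.31.

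Genes of leukocyte docking were mixed in direction. Of 18 measured, 11 were higher and 7 lower (median 0.13), 0 passed, and 3 were higher and 2 lower at an unadjusted p under 0.05 (limma). Icam2, an adhesion ligand on endothelium and also on lymphocytes and platelets, read 6.14, 6.28 and 6.69 in DX2 spleens, against 7.15, 7.15 and 7.27 in control spleens. Its difference was -0.82 (SE 0.16, adjusted p = 0.0834), with a clear gap between the groups. Podxl, a sialomucin of endothelium, differed by 0.87 (SE 0.18, adjusted p = 0.0965), Vcam1, the adhesion ligand that red pulp macrophages also carry, by 0.49 and Cd34, a sialomucin of endothelium and stem cells, by 0.55 (0.36 without DX2 3). The integrin chains that bind Madcam1, named here after their values were seen, differed by -0.39 (Itga4, adjusted p = 0.239) and -0.26 (Itgb7, adjusted p = 0.540). The list's median was 0.070 without DX2 1 and 0.073 without DX2 2.

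Among 24 transcription factors known from endothelium, Ets1 passed. Ets1, an ETS-family factor that lymphocytes also express at high level, read 8.21, 8.44 and 8.47 in DX2 spleens, against 9.14, 9.19 and 9.20 in control spleens, and fell by 0.80 on the log2 scale (SE 0.11, adjusted p = 0.0456, limma). The control values were nearly identical and the DX2 values all lay lower. The call was lost in every fit that left out an array other than DX2 2, and with the replicate block, centred arrays, the sex term or the male spleens alone. Mef2c (-1.03, SE 0.25) and Fli1 (-0.52, SE 0.14), which B cells express too, were lower in every DX2 spleen without passing, at adjusted p of 0.122 and 0.150. Gata2, a factor of endothelium, stem cells and mast cells, differed by 0.41 (adjusted p = 0.192). The list's median was 0.061, with 15 higher and 9 lower, and it was 0.095 without DX2 1 and 0.040 without DX2 3. At an unadjusted p under 0.05 (limma) 5 were higher: Gata2, Erg, Hey1, Sox18 and Nr2f2. Lower at that threshold were 4: Ets1, Mef2c, Fli1 and Foxo1.

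The wider endothelial markers had 29 of 34 measured genes higher and 5 lower, with a median of 0.19 and none past the threshold, against 5 higher and 1 lower at an unadjusted p under 0.05 (limma). Plvap, the protein of endothelial fenestral diaphragms, read 8.18, 8.26 and 9.49 in DX2 spleens, against 7.61, 7.33 and 7.76 in control spleens. As with Eng and Kdr, DX2 3 was far above the others, and the difference was 1.07 (SE 0.34, adjusted p = 0.193), or 0.65 without DX2 3. Nos3, the endothelial nitric oxide synthase, differed by 0.47 (SE 0.13) and Apold1 by 0.63 (SE 0.18). S1pr1, the sphingosine phosphate receptor of endothelium and lymphocytes, differed by -1.30 (SE 0.36, adjusted p = 0.150). Without DX2 2 the list had 33 of 34 genes higher and a median of 0.28, and without DX2 3 it had 21 higher and a median of 0.10. Without DX2 1 it had 26 higher and a median of 0.12.

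Sinusoidal and lymphatic markers had 10 of 15 measured genes higher and 5 lower (median 0.32), 0 past the threshold, and 4 higher and 0 lower at an unadjusted p under 0.05 (limma). F8, the coagulation factor made by sinusoidal endothelium, read 7.19, 7.24 and 7.84 in DX2 spleens, against 6.10, 6.24 and 6.75 in control spleens. Its difference of 1.06 (SE 0.23) left the groups apart, at adjusted p = 0.104. Prox1, the lymphatic transcription factor, differed by 0.41, Gpr182, a receptor of sinusoidal endothelium, by 0.61 and the scavenger receptor Stab1 by 0.33. Without DX2 3 the list's median was 0.20 and Gpr182 was at 0.40, and among the male spleens F8 was at 0.67 and Gpr182 at 0.38. The list of arterial and Notch genes also holds genes that are not restricted to arteries, such as Ephb4, Cxcr4 and Cxcl12. It had a median of 0.050, with 8 of 14 higher and 6 lower and none past the threshold. At an unadjusted p under 0.05 (limma) 1 was higher and 1 lower. Cxcr4 (-0.44), Ephb4 (0.31), Cxcl12 (-0.59) and Jag1 (0.21) had the smallest p of that list, whose median ran between -0.039 and 0.12 with 1 array left out. Cxcl12 was at -0.24 without DX2 2 and -0.93 without DX2 1, Jag1 at 0.12 without DX2 1 and Ephb4 at 0.20 without DX2 3.

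**Figure D3:**
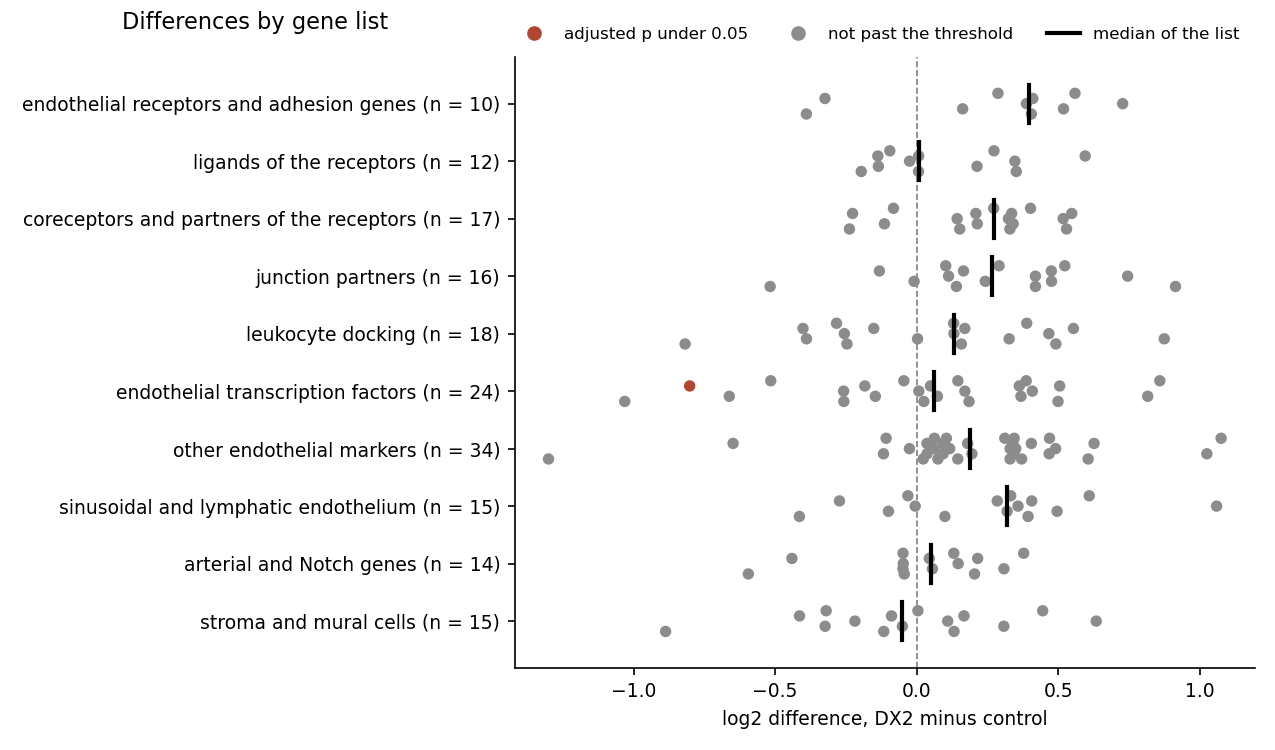
Log2 differences (DX2 minus control) of every measured gene in 10 lists, 1 point per gene, with the list median as a black bar and genes past an adjusted p of 0.05 in red. The median is 0.40 for the receptors and adhesion genes at the top and 0.0064 for their ligands, and Ets1 is the only red point.

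Markers of other cells that carry some of these proteins also moved between the spleens, and their part in the values above was not tested. In whole spleen RNA, fewer cells of a type and less RNA per cell cannot be told apart. Of 9 measured megakaryocyte and platelet markers all 9 had higher means in DX2, and the list mean was 9.04, 6.90 and 7.34 in DX2 spleens, against 6.79, 7.40 and 7.37 in control spleens. DX2 1 alone stood apart, and without it 3 of 9 were higher and the median was -0.13. The defining markers Pf4, Itga2b and Gp9 differed by 0.36, 0.44 and 0.85 with all spleens. Of 12 stem and progenitor markers 9 were higher (8 without DX2 1), with list means of 6.33 to 6.52 in DX2 and 6.17 to 6.21 in control spleens. Within that list Kit differed by 0.25, Hlf by 0.10, Mecom by -0.022 and Meis1 by -0.086.

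Red pulp macrophage markers were higher for 10 of 13 genes, with list means of 8.92 to 9.21 in DX2 and 8.52 to 8.70 in control spleens. In that list Cd5l rose by 1.35 (adjusted p = 0.0422, limma), and Spic, Slc40a1 and Hmox1 differed by 0.46, -0.33 and -0.032. Cd5l passed in 8 of 17 alternatives, and with 1 spleen left out only when that was DX2 2. All 8 measured erythroid markers were higher, at list means of 9.71, 7.47 and 9.42 in DX2 spleens, against 6.40, 8.20 and 8.08 in control spleens, with Klf1, Gata1 and Epor at differences of 1.83, 0.96 and 1.01. All 8 were higher whichever 1 spleen was left out, but the erythroid median of 1.23 was 0.69 without control 1, 0.74 without DX2 1 and 1.99 without DX2 2, and Klf1 was at 1.12 without control 1. DX2 2 was the lowest DX2 spleen in erythroid markers as well as in most endothelial members. The same held for the list means of megakaryocyte and platelet (6.90), stem and progenitor (6.33), red pulp macrophage (8.92), monocyte (7.45) and neutrophil markers (7.28). In B cell, T cell and stromal markers DX2 1 was the lowest DX2 spleen. Neutrophil markers were higher for 10 of 11 genes (median 0.56) and T cell markers for 0 of 8 (median -0.40), none past the threshold. Without DX2 1 the counts were 5 of 11 and 5 of 8, with medians of -0.068 and 0.10. Monocyte markers were higher for 7 of 9 genes (list means 7.45 to 7.88 in DX2 and 7.22 to 7.47 in control spleens). Without DX2 1 it was 4 of 9, with a median of -0.017 against 0.31 over all spleens. The leading markers Ly6c2, Ccr2, Csf1r and Cx3cr1 differed by 0.77, -0.14, 0.49 and 0.15, none past the threshold. Without DX2 1 they differed by 0.98, -0.31, 0.58 and 0.47, and Cx3cr1 was at -0.16 without DX2 2. All 9 B cell markers were lower, with list means of 8.04 to 8.81 in DX2 and 9.83 to 10.25 in control spleens. In that list 4 genes passed (limma): Cr2 fell by 3.16 (adjusted p = 0.0431), Fcer2a fell by 2.38 (adjusted p = 0.0491), Ebf1 fell by 1.84 (adjusted p = 0.0422) and Cd79b fell by 1.14 (adjusted p = 0.0456), and Cd79a and Ms4a1 differed by -1.36 and -1.21. With 1 spleen left out these 4 passed without DX2 2, and Cr2 also without DX2 1. None of the 4 passed with the replicate block, centred arrays, the sex term or the male spleens alone, and the same held for Cd5l. With the robust prior of limma Cr2 and Fcer2a did not pass either (adjusted p = 0.0596 and 0.0560). Stromal and mural cell markers had 7 of 15 genes higher, 8 lower and a median of -0.051. With 1 spleen left out that median ran from -0.13 without DX2 2 to 0.15 without DX2 1. The leading markers Pdgfra, Pdgfrb, Col1a1 and Col3a1 differed by 0.31, 0.44, 0.63 and 0.17. These 4 were among the 7 higher genes, and the 8 lower ones included Cxcl13 (-0.89), Dcn (-0.41) and Acta2 (-0.32). None of the list passed, and Col3a1 was at -0.0054 without control 3. The list mean was lowest in DX2 1 (6.35) and between 6.59 and 7.01 in control spleens.

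**Figure D4:**
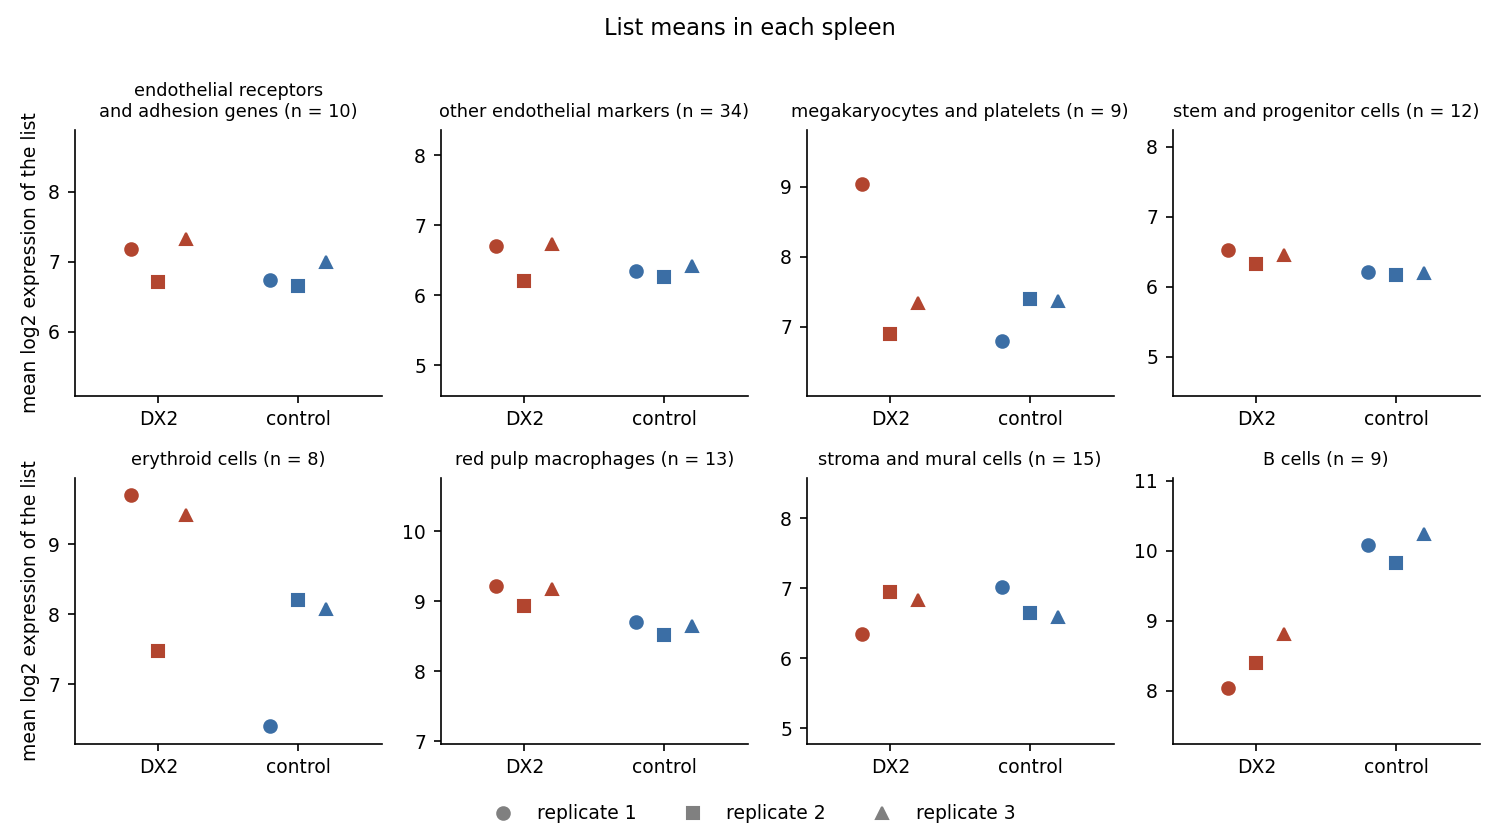
Mean log2 expression of 8 gene lists in each spleen, with DX2 at the left and control at the right and the same height in every panel. Megakaryocyte and platelet markers are high in DX2 1 alone (9.04), erythroid markers in DX2 1 and DX2 3, and B cell markers are lower in all 3 DX2 spleens (8.04 to 8.81) than in control spleens.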

How the data were processed

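The authors deposited 1 table of log2 expression values for the 6 arrays, made with RMA per the submitters' processing notes. The RMA software, its version and the annotation behind it were not given in the sources, and the log2 scale was read from the range of the values (0.771 to 13.3). RMA includes background correction, normalization between arrays and a summary over probes, and it can compress large differences. Probe sets were named from the platform annotation: of 41345, 23521 carried a single symbol, 1814 more than 1 and 16010 none, and 23328 of the 23521 matched a mouse gene table (GRCm38.p6). Where several probe sets served 1 of the 22180 genes, the brightest on average was taken; the members have 1 each. Groups and replicate numbers came from the titles.

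Differences came from lmFit and eBayes of limma 3.58.1 (R 4.3.3) without covariate or filter, and p-values were adjusted across the 22180 genes by Benjamini-Hochberg, with 0.05 as the threshold. The fit was tested on simulated data. The members and lists were chosen with earlier results of these data known, and some genes stand in several lists (Cd34, Vcam1, Angpt1, Procr and Mrc1). All 10 members are named. Of every other endothelial list up to 4 genes of smallest p, and any that passed, are named. Of the cell type marker lists the leading markers are named, except for neutrophils and T cells. The transcription factors at an unadjusted p under 0.05 and some of the lower stromal markers are named as well. The nearest genes are the 5 with the smallest mean absolute distance to the members' mean centred profile, among genes whose range was at least 0.5 of the profile's. Listed genes without a probe set of their own were not analysed here. The number of arrays limits the precision; the median SE of a difference over all genes was 0.14.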

Additional observations from a re-analysis of the deposited data

How the results depend on the processing

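Across 17 alternatives to the fit, the 10 members stayed below significance, 0 of 10 passing in each (limma). The smallest adjusted p of a member was 0.0692 (Eng, array weights), and at an adjusted p under 0.1 in the unweighted fit 0 of 10 passed. The members' median difference of 0.40 was 0.48 with array weights, 0.49 with each array centred on its median (which put the median of all genes at 0.10), 0.26 both with a sex term and in the male spleens alone, and 0.24 to 0.54 with 1 array left out. Leaving out 1 array changed it by more than 1.5 times only without DX2 3 (0.24). Of 170 refitted member differences 166 kept their direction; Tek (-0.068) and Emcn (-0.57) were reversed with the sex term and in the male spleens, which give the same difference by construction. Over all genes 70 passed. The count was 1 with the replicate block, 125 without the 40% dimmest genes, 547 with array weights, 2 with centred arrays, 2 with the sex term, 0 in the male spleens (1592 at an unadjusted p under 0.05), 394 at an adjusted p under 0.1, and between 1 and 370 with 1 array left out: 1 without control 1, control 2 or DX2 3, 5 without control 3, 8 without DX2 1 and 370 without DX2 2. The labels do not say whether equal replicate numbers pair spleens, so the numbers were not taken as pairs. After centring within groups, same-numbered spleens had correlations of -0.32, -0.14 and 0.068 across genes, and different-numbered ones between -0.21 and 0.33. With 3 spleens per group these correlations depend on one another and cannot decide the pairing. The block left the members' median at 0.40. Fits with fewer arrays or more terms have fewer degrees of freedom. The male comparison has 1 control, assumed to vary like the DX2 spleens.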
